A study of Mus musculus with 7 samples.

Results

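The genes described here encode the Phase II conjugation enzymes of the Ugt1 to Ugt3, cytosolic and mitochondrial Gst, and Sult1 to Sult6 groups. They were chosen by symbol alone from the mm9 (NCBIM37) annotation, which gave 59 autosomal protein-coding genes of 21418, of which 20 were Ugt, 22 Gst and 17 Sult. Phase II enzymes attach a polar group to drugs, toxins, bile pigments and hormones so that bile and urine can carry them away. UGT enzymes transfer glucuronic acid from UDP-glucuronate, GST enzymes add glutathione, and SULT enzymes transfer the sulfo group of PAPS, the activated form of sulfate. Many of the genes arose by tandem duplication and lie in clusters, and the liver is the main site of the reactions. CTCF is a zinc finger protein that binds an oriented DNA motif, and cohesin, of which Rad21 is a subunit, forms chromatin loops whose ends often lie at pairs of CTCF sites.

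CTCF and Rad21 were mapped by ChIP-seq in livers of male CD-1 mice (strain label Crl:CD1(ICR)), an outbred stock, at 8 weeks of age. The labels name no treatment or altered gene, and both factors were mapped in the same kind of mouse. There were 4 CTCF libraries and 3 Rad21 libraries, which represent 4 livers by the study's methods. The methods match Rad21 to CTCF libraries by liver, but the labels share no mouse identifier between the factors and so do not show which libraries pair. The lists analysed hold 1 merged set of peaks per factor, 76683 for CTCF and 67369 for Rad21, and another list places 52436 CTCF sites in classes. No value per liver could be computed, so no test of a difference was made and every interval below covers counting error only. Whole liver holds hepatocytes and other cells, and the files give neither expression nor a marker of cell type, so the tissue label was not checked.

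Each gene span was extended by 20 kb on each side to form its window, and the joined windows of a family are called its territory. The Ugt genes had 8 such pieces (807 kb), the Gst genes 10 (770 kb) and the Sult genes 14 (1120 kb). Joined over all families they made 31 loci, because Ugt2b38, Ugt2a1, Sult1b1, Sult1d1 and Sult1e1 share a locus on chromosome 5. A peak is called co-bound when it overlaps a peak of the other factor by at least 1 bp, and a Rad21 peak with no CTCF overlap is a cohesin-non-CTCF peak. Peak score is 10 times the −log10 of the q-value, cut to a whole number, and the fragment count at a peak summit was recovered from its fold enrichment and p-value.

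The sites whose sequences follow lie in the loci with at least 3 member genes, up to 4 a locus in order of score. They were taken among CTCF peaks with a deposited motif whose match on the same strand had its centre within 60 bp of the summit, so some stronger sites without such a match, such as those in an intron of Gstm3 and at an internal start of Sult1d1, are not shown. Capitals mark the 19 bases matched by a motif that was learnt from TAD anchors on odd-numbered autosomes, at a threshold that 5% of sequences 2000 bp from CTCF summits also reached on either strand, and 5 flanking bases stand in lower case on each side. Each sequence is read 5′ to 3′ on the strand of the motif in mm9. The first set comes from the Ugt1a locus, where a site past Ugt1a1 had no Rad21 peak and the site at Ugt1a5 was co-bound.
Past the Ugt1a1 start, chr1:90113900-90113928, minus strand: catggAGGCCAGAAGGGGGCACTGgattc
At the Ugt1a5 start, chr1:90062518-90062546, minus strand: ttgtcACGCCACTGGGTGGCCCCAgctcc
Intron of 6 Ugt1a genes, chr1:90042007-90042035, plus strand: caataGTGCCACCAGGTGGGGCCGaagct

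The Gstm locus gave the strongest start-proximal site of all members, at Gstm1, and the TAD anchor in an intron of Gstm6.
At the Gstm1 start, chr3:107821016-107821044, minus strand: gggagCATCCAGCAGGCGGCGATGgcggc
Gstm6 intron, chr3:107742465-107742493, plus strand: tcctgCCTCCCATAGGGGGCACTGtcact
Upstream of Gstm4, chr3:107864597-107864625, minus strand: catttTGGACAATAGGGGTCACTGtagga
At the Gstm6 start, chr3:107746796-107746824, minus strand: ctgagAATCCAGCAGGGGGCAGATggaag

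The locus on chromosome 5 gave sites beside Ugt2b38, Sult1d1 and Ugt2a1. The Sult1d1 site lay past the end of the gene, 9066 bp from an annotated start inside it.
Upstream of Ugt2b38, chr5:87865519-87865547, minus strand: acactCAAACAGTAGATGGAGCTCcagga
Past the Sult1d1 start, chr5:87980139-87980167, minus strand: caccaATTTCACTAGGGGGCGAACtttca
Upstream of Ugt2a1, chr5:87924080-87924108, plus strand: tacagCATCCACCTGGAGGCAGCAcatcc

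The Gstt locus had 3 anchors, all with the motif on the minus strand, and a strong site on the plus strand beside Gstt3.
Past Gstt3, chr10:75228068-75228096, minus strand: agaagAAGCCAGAAGAGGGCGTTGgagat
Coding exon of Gstt2, chr10:75295168-75295196, minus strand: cttgtTGGCCAGCAGGTGACGCTAgcgga
Upstream of Gstt2, chr10:75316386-75316414, minus strand: atgagCTAACACTAGGTGGCGCTCtgaac
Past the Gstt3 start, chr10:75236331-75236359, plus strand: cctccCAGTCGGCAGGTGGCTCTGttttt

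The strongest CTCF site in Gst territory, in an intron of Gsto2, and that in Sult territory were added after their values were seen. The Sult site lay upstream of Sult1a1, 10 bp from the start of Slx1b.
Gsto2 intron, chr19:47957140-47957168, plus strand: aacgaTGGCCACCAGGGGGAGCCCcccca
Upstream of Sult1a1, chr7:133839268-133839296, minus strand: tcctcCTGCCAGCAGGCGGCGCAGcaagt

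Gst territory had the most peaks per 100 kb for both factors. It held 79 CTCF peaks, or 10.3 per 100 kb (95% exact Poisson interval 8.12 to 12.8), and 75 Rad21 peaks, or 9.74 per 100 kb (7.66 to 12.2). Ugt territory held 34 CTCF peaks, or 4.21 per 100 kb (2.92 to 5.89), and 49 Rad21 peaks, or 6.07 per 100 kb (4.49 to 8.03). Sult territory held 43 CTCF peaks, or 3.84 per 100 kb (2.78 to 5.17), and 37 Rad21 peaks, or 3.30 per 100 kb (2.33 to 4.56). Around all autosomal protein-coding genes the densities were 4.63 CTCF and 4.04 Rad21 peaks per 100 kb. The Gst intervals for CTCF lay above those of both other families and above the value for all genes. For Rad21 the Gst interval overlapped that of Ugt. Ugt was the family with more Rad21 than CTCF peaks under this count, but not at a score of 100 or more (23 Rad21 and 24 CTCF peaks). With gene spans alone all families had more Rad21 than CTCF peaks (32 and 24 in Ugt, 33 and 30 in Gst, 17 and 16 in Sult). Gst windows also hold other genes, and 29 of the 79 Gst CTCF peaks lay nearer to the start of a gene outside the families, against 1 of 34 in Ugt and 20 of 43 in Sult territory. Peaks nearest to a member numbered 50 CTCF and 52 Rad21 in Gst, 33 and 49 in Ugt, and 23 and 21 in Sult territory. The lengths were not split in the same way, so no density is given for these peaks.

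**Figure D1:**
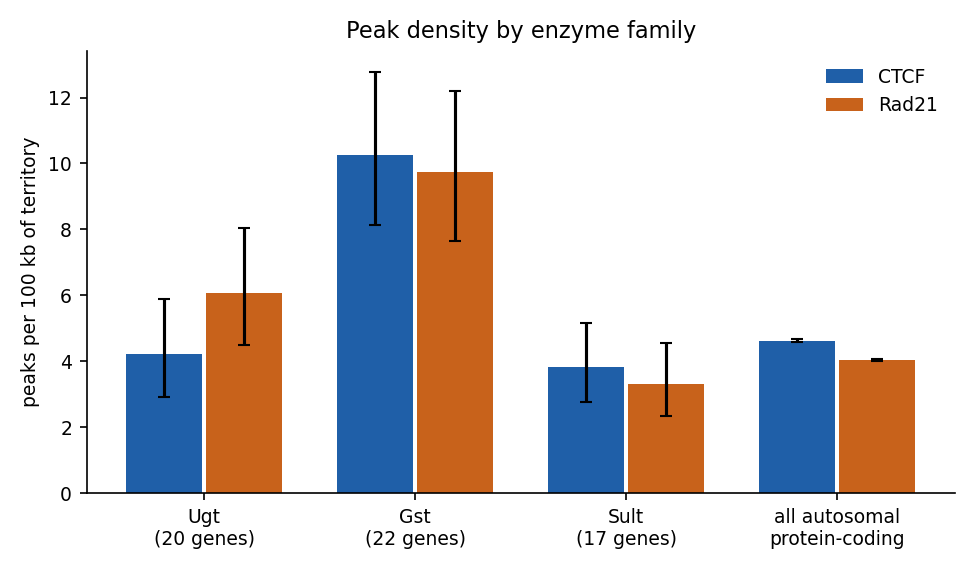
Peaks per 100 kb of territory for CTCF (blue) and Rad21 (orange) in the 3 families and around all autosomal protein-coding genes. Bars are counts divided by length and error bars are 95% exact Poisson intervals, which cover counting error only. Gst stands at 10.3 and 9.74, and Ugt is the family in which the Rad21 bar (6.07) is taller than the CTCF bar (4.21), an order not seen at a score of 100 or more.

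Peak strength followed another order. The median CTCF score was 162 in Ugt, 334 in Gst and 324 in Sult territory, beside 320 for all genes. Median Rad21 scores were 99 in Ugt, 173 in Gst and 152 in Sult territory, beside 165 for all genes. Ugt peaks were thus the weakest for both factors. Behind the member CTCF peaks stood 19 to 1231 fragments at the summit, with a median of 70, so the weakest calls rest on few reads.

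The share of CTCF peaks that carried cohesin was near the background in every family. Rad21 overlapped 22 of 34 Ugt CTCF peaks (64.7%, Wilson 95% interval 47.9 to 78.5%), 57 of 79 Gst peaks (72.2%, 61.4 to 80.8%) and 30 of 43 Sult peaks (69.8%, 54.9 to 81.4%). The share around all genes, 67.5%, lay inside all 3 intervals. Seen from the side of cohesin, the shares lay further apart. Rad21 peaks without CTCF made up 27 of 49 in Ugt territory (55.1%, 41.3 to 68.2%), 19 of 75 in Gst (25.3%, 16.9 to 36.2%) and 6 of 37 in Sult (16.2%, 7.65 to 31.1%), beside 21.9% around all genes.

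Weak Rad21 peaks are more often without CTCF, and Ugt territory held more of them, so the shares were also read within a score range. Below a score of 100, 19 of 26 Ugt peaks (73.1%, 53.9 to 86.3%), 15 of 23 Gst peaks (65.2%, 44.9 to 81.2%) and 4 of 14 Sult peaks (28.6%, 11.7 to 54.6%) lacked CTCF, beside 49.2% around all genes. At a score of 100 or more the figures were 8 of 23 in Ugt (34.8%, 18.8 to 55.1%), 4 of 52 in Gst (7.69%, 3.03 to 18.2%) and 2 of 23 in Sult (8.70%, 2.42 to 26.8%), beside 7.45% around all genes. Below 100 the Ugt and Gst intervals overlapped, and at 100 or more the Ugt interval lay above that of Gst and overlapped that of Sult. The part of weak peaks in the Ugt share was not tested beyond these values.

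A CTCF peak lay in the window of 19 of 20 Ugt genes, 20 of 22 Gst genes and 12 of 17 Sult genes, where 84.1% of all genes had one. Rad21 peaks lay in 20, 21 and 10 windows respectively (81.4% of all genes). A Rad21 peak without CTCF was found in 17 Ugt, 13 Gst and 6 Sult windows (37.5% of all genes). No peak of either factor was found for 6 members: Gstm2-ps1, which is annotated as protein-coding although its symbol marks a pseudogene, and Sult1c1, Sult2a3, Sult2a4, Sult2a5 and Sult3a1 (15.4% of all genes). The Ugt1a genes share their last exons and their spans overlap, so their counts are not independent of each other. The per-gene median was 4 CTCF peaks in Ugt, 5 in Gst and 1 in Sult windows, beside 4 over all genes.

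**Figure D2:**
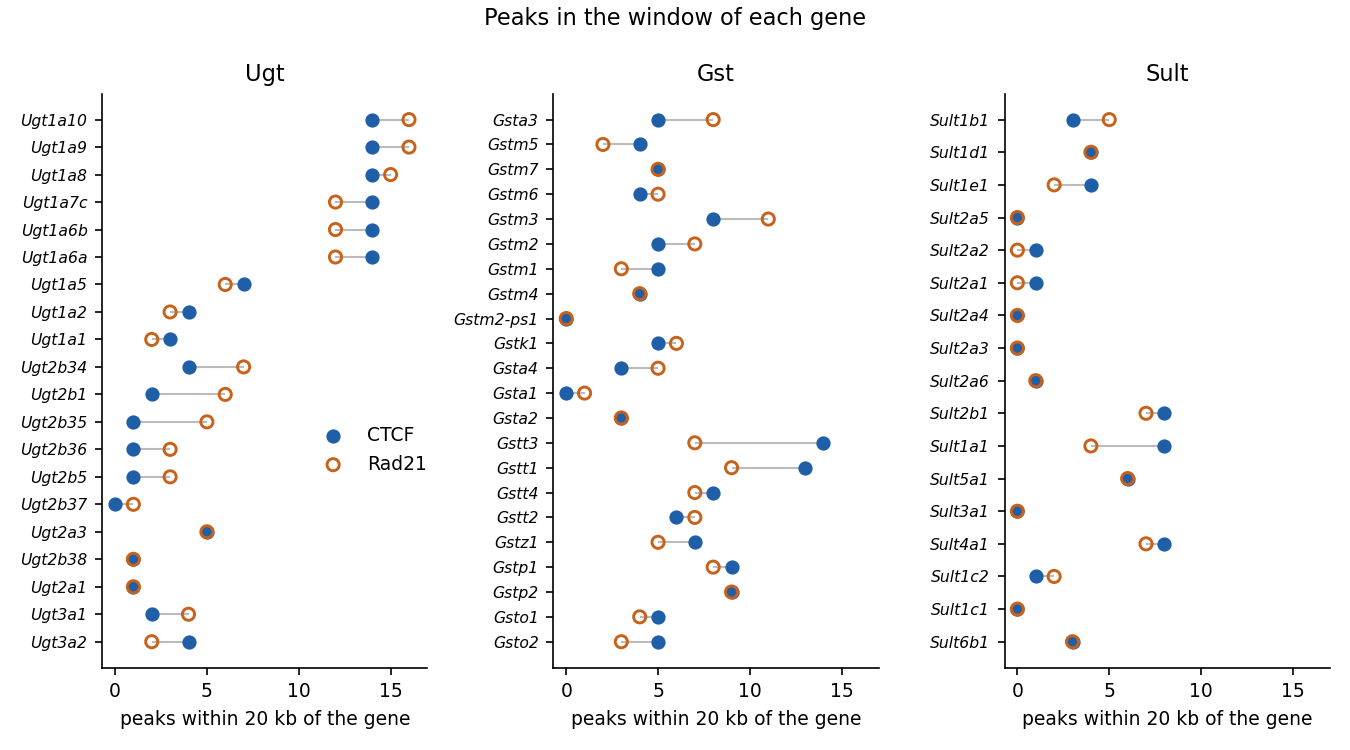
CTCF (filled) and Rad21 (open) peaks in the window of each of the 59 genes, by family, with lines joining the counts of a gene. Ugt1a genes reach 14 CTCF and 16 Rad21 peaks, while 5 Sult genes and Gstm2-ps1 have none.

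Anchors were shared unevenly. The class list marks CTCF sites as TAD anchors, which lie at the edges of topologically associating domains, or intra-TAD anchors, which the study predicted as ends of smaller loops, and calls the remaining sites other CAC sites (with cohesin) or lone CTCF sites. The classes are the authors' own and a lone site may still overlap a merged Rad21 peak, as 3 of the 19 lone sites of the members did. Per the paper, the class list holds CTCF peaks seen in at least 2 replicate samples. Of 155 member CTCF peaks, 49 had no class (median score 60). They include CTCF peaks at the starts of Ugt1a6a, Ugt2b36, Ugt3a2, Gstm2, Gstm3, Gstt3 and Gstk1. In Ugt territory 22 CTCF peaks had a class and 0 were anchors, which allows a share of up to 14.9% (Wilson upper bound). In Gst territory 19 of 54 classed peaks were anchors (35.2%, 23.8 to 48.5%), 4 of them TAD and 15 intra-TAD anchors. In Sult territory 6 of 31 were anchors (19.4%, 9.19 to 36.3%), 4 of them TAD and 2 intra-TAD anchors. Around all genes the share was 28.5%. Of these anchors, 10 of 19 in Gst and 2 of 6 in Sult territory lay nearer to the start of a gene outside the families. Counted by gene, and including such anchors, 0 of 20 Ugt, 18 of 22 Gst (81.8%) and 6 of 17 Sult genes (35.3%) had an anchor in the window, where 51.6% of all genes did. The sites also carry a flag for Top2b, a topoisomerase that relieves strain in DNA and is known at loop ends, set in 7 of 22 Ugt (31.8%, 16.4 to 52.7%), 35 of 54 Gst (64.8%, 51.5 to 76.2%) and 15 of 31 Sult sites (48.4%, 32 to 65.2%), beside 55.8% for all genes.

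At transcription starts, Ugt genes had Rad21 more often than CTCF, mainly as weak peaks, while the counts were close in Gst and Sult genes. Every annotated transcript start of a gene was used, so a start can lie inside the gene, as it does for the peaks given for Sult1d1 and Sult6b1, the co-bound site of Sult1b1 and the stronger Rad21 peak of Ugt1a6b. A CTCF peak lay within 1 kb of a start in 6 Ugt, 14 Gst and 6 Sult genes (57.3% of all genes). A Rad21 peak did so in 14 of 20 Ugt (70.0%, 48.1 to 85.4%), 17 of 22 Gst (77.3%, 56.6 to 89.9%) and 7 of 17 Sult genes (41.2%, 21.6 to 64.0%), where 54.6% of all genes had one. At a score of 100 or more the counts fell to 5, 11 and 4 (46.9% of all genes). A Rad21 peak without CTCF lay at the start of 10 Ugt, 5 Gst and 2 Sult genes (10.1% of all genes). Among genes with Rad21 at the start, the start had no co-bound Rad21 peak in 8 of 14 Ugt (57.1%, 32.6 to 78.6%), 4 of 17 Gst (23.5%) and 1 of 7 Sult genes (14.3%), beside 4.69% over all genes. The median of the strongest Rad21 score at these starts was 93.5 in Ugt, 167 in Gst and 109 in Sult genes, and 269 over all genes. All Ugt start peaks except that of Ugt1a5 scored below the median over all genes.

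**Figure D3:**
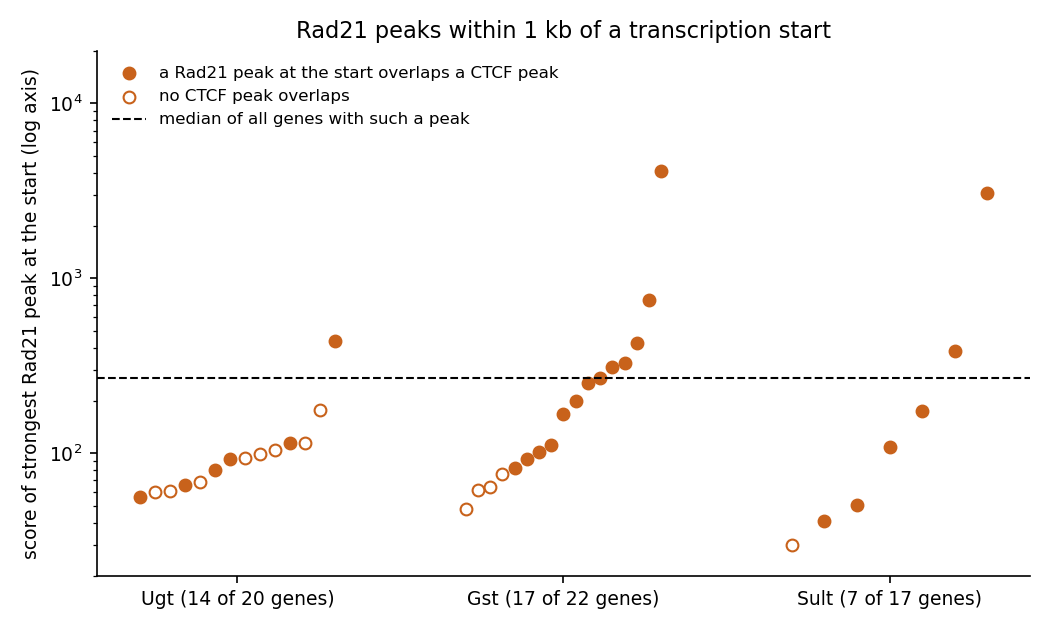
Score of the strongest Rad21 peak within 1 kb of a start (log axis), 1 point per gene, sorted by score within a family. Filled points are genes where any Rad21 peak at the start overlaps CTCF, open points are genes where none does, and the dashed line is the median of all genes with such a peak, 269. Only the highest Ugt point (441) lies above that line.

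Several Ugt1a genes have a promoter of their own that reads into the shared exons. Ugt1a10, Ugt1a9, Ugt1a7c and Ugt1a2 had a Rad21 peak without CTCF at the start, with scores of 60, 178, 61 and 104. Ugt1a6a and Ugt1a6b, near-identical genes known for glucuronidation of planar phenols, had as their strongest Rad21 start peaks scores of 56 and 93 without CTCF, while a weaker Rad21 peak upstream (40) overlapped a CTCF peak of 94. At Ugt1a5 both factors were strongest, with a CTCF score of 1046 (141 fragments) and a Rad21 score of 441 (83 fragments). Ugt1a1, the bilirubin-conjugating enzyme, and Ugt1a8 had no peak of either factor within 1 kb of a start. In the Ugt2 group, which conjugates steroids and bile acids, Ugt2b1, Ugt2b35 and Ugt2a3 had Rad21 alone at the start, with scores of 99, 69 and 115. Ugt2b34 and Ugt2b36 had co-bound peaks with Rad21 scores of 115 and 80. No start peak was found at Ugt2b5, Ugt2b37, Ugt2b38 or Ugt2a1. Ugt3a1, whose family uses sugars other than glucuronic acid, had Rad21 alone (94), and Ugt3a2 had a co-bound peak (66).

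The highest start score of each factor belonged to a Gst gene. The median of the strongest CTCF score at starts was 482.5 in Gst, 522 in Sult and 94 in Ugt genes, beside 576 over all genes. Gstm1, a mu-class enzyme, had a CTCF score of 7582 (747 fragments) and a Rad21 score of 4106 (490 fragments), both about 150 bp upstream of the start. Gstm6 had a CTCF score of 3618 and a Rad21 score of 311. Gstm7 and Gstm4 had CTCF scores of 745 and 405 and Rad21 scores of 330 and 167. Gstm3 and Gstm5 had weaker pairs, with CTCF scores of 54 and 189. Gstm2 carried both factors (74 and 62) at separate positions. Gsto2, an omega-class thioltransferase, had a CTCF peak of 5201 and a Rad21 peak of 198. Gsto1 had 249 and 268. Gstp1, an abundant enzyme in male mouse liver, had 1065 and 756, and Gstz1, which isomerises maleylacetoacetate in tyrosine breakdown, had 560 and 429. Gstt1, a theta-class enzyme acting on small halogenated compounds, had 607 and 253. Its neighbour Gstt3 had a weak co-bound pair (66 and 112). Rad21 stood alone at Gsta3 (64), Gsta4 (76) and Gstt2 (48), while Gstk1 of the mitochondria and peroxisomes had a weak pair (59 and 82).

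Among Sult genes, Sult1d1, which sulfonates catechols, had scores of 2903 for CTCF (289 fragments) and 3057 for Rad21 (308 fragments) at an annotated start inside the gene, where the annotation also places an intron. Sult1b1, known for thyroid hormones, had a CTCF score of 489 over a Rad21 peak of 75, and a stronger Rad21 peak (109) without CTCF at another of its annotated starts. Sult2b1, which acts on cholesterol, had 446 and 41, and Sult1a1, which acts on phenols, had 265 and 175. Sult5a1 had 642 and 51, Sult6b1 had 555 and 387, and Sult1c2 had a Rad21 peak alone with a score of 30. Sult1e1, the estrogen sulfotransferase, and Sult4a1, a brain enzyme, had no peak within 1 kb of a start.

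The Ugt1a locus at chr1:89931963-90136577 held 9 genes, 14 CTCF and 16 Rad21 peaks, 6 of the CTCF peaks being co-bound. Rad21 peaks without CTCF numbered 10. The highest CTCF score, 1089 (212 fragments), belonged to a lone site 5392 bp past the Ugt1a1 start, in a stretch annotated as an untranslated exon of Ugt1a6a, and the second, 1046, to Ugt1a5. The nearest TAD anchors lay 119 kb to the left (score 1860) and 70.1 kb to the right (score 6207) of the genes. No anchor lay among the genes.

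The Gstm locus at chr3:107678739-107867812 held 7 genes with 19 CTCF and 19 Rad21 peaks, of which 13 CTCF peaks were co-bound. It contained 2 TAD anchors and 1 intra-TAD anchor. Besides Gstm1, a site in an intron of Gstm3 was strong in both factors, with a CTCF score of 7317 and a Rad21 score of 7377, the highest Rad21 score of any member. The Gstt locus at chr10:75216860-75317626 had 4 genes, 21 CTCF and 15 Rad21 peaks and 16 co-bound CTCF peaks. Its density of 20.8 CTCF peaks per 100 kb was exceeded by that of the Gstp locus, at 21.4 per 100 kb, where the strongest site (CTCF 5619, Rad21 7283) lay 18.6 kb past the Gstp1 start. In Gsto2 the CTCF score reached 13702 (1231 fragments) beside a Rad21 score of 2539, the highest CTCF score of any member.

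Most Gst loci of 1 or 2 members also held anchors, Gstm2-ps1 being the exception with no peak. At Gstk1 the intra-TAD anchors had CTCF scores of 6349, 3129 and 2824 and Rad21 scores of 4031, 1917 and 2362, and each lay nearer to the start of another gene than to that of Gstk1. Gsta4, which clears the lipid aldehyde hydroxynonenal, held an intra-TAD anchor of CTCF score 4738 and Rad21 score 422 in an intron. Gsta1 had 0 CTCF peaks and 1 Rad21 peak in its window, of score 91, but few of its bases are unique. Gsta2 had an anchor 2421 bp upstream of a start (3131 and 1320). Gsta3 had 5 CTCF and 8 Rad21 peaks, 5 of the latter without CTCF, and an anchor 30.9 kb past its start (1892 and 1622). Gstz1 had an anchor 15.9 kb upstream, in a coding exon of Pomt2 (2850 and 1209). Gstp2 had 9 peaks of each factor in its window and none within 1 kb of its start.

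**Figure D4:**
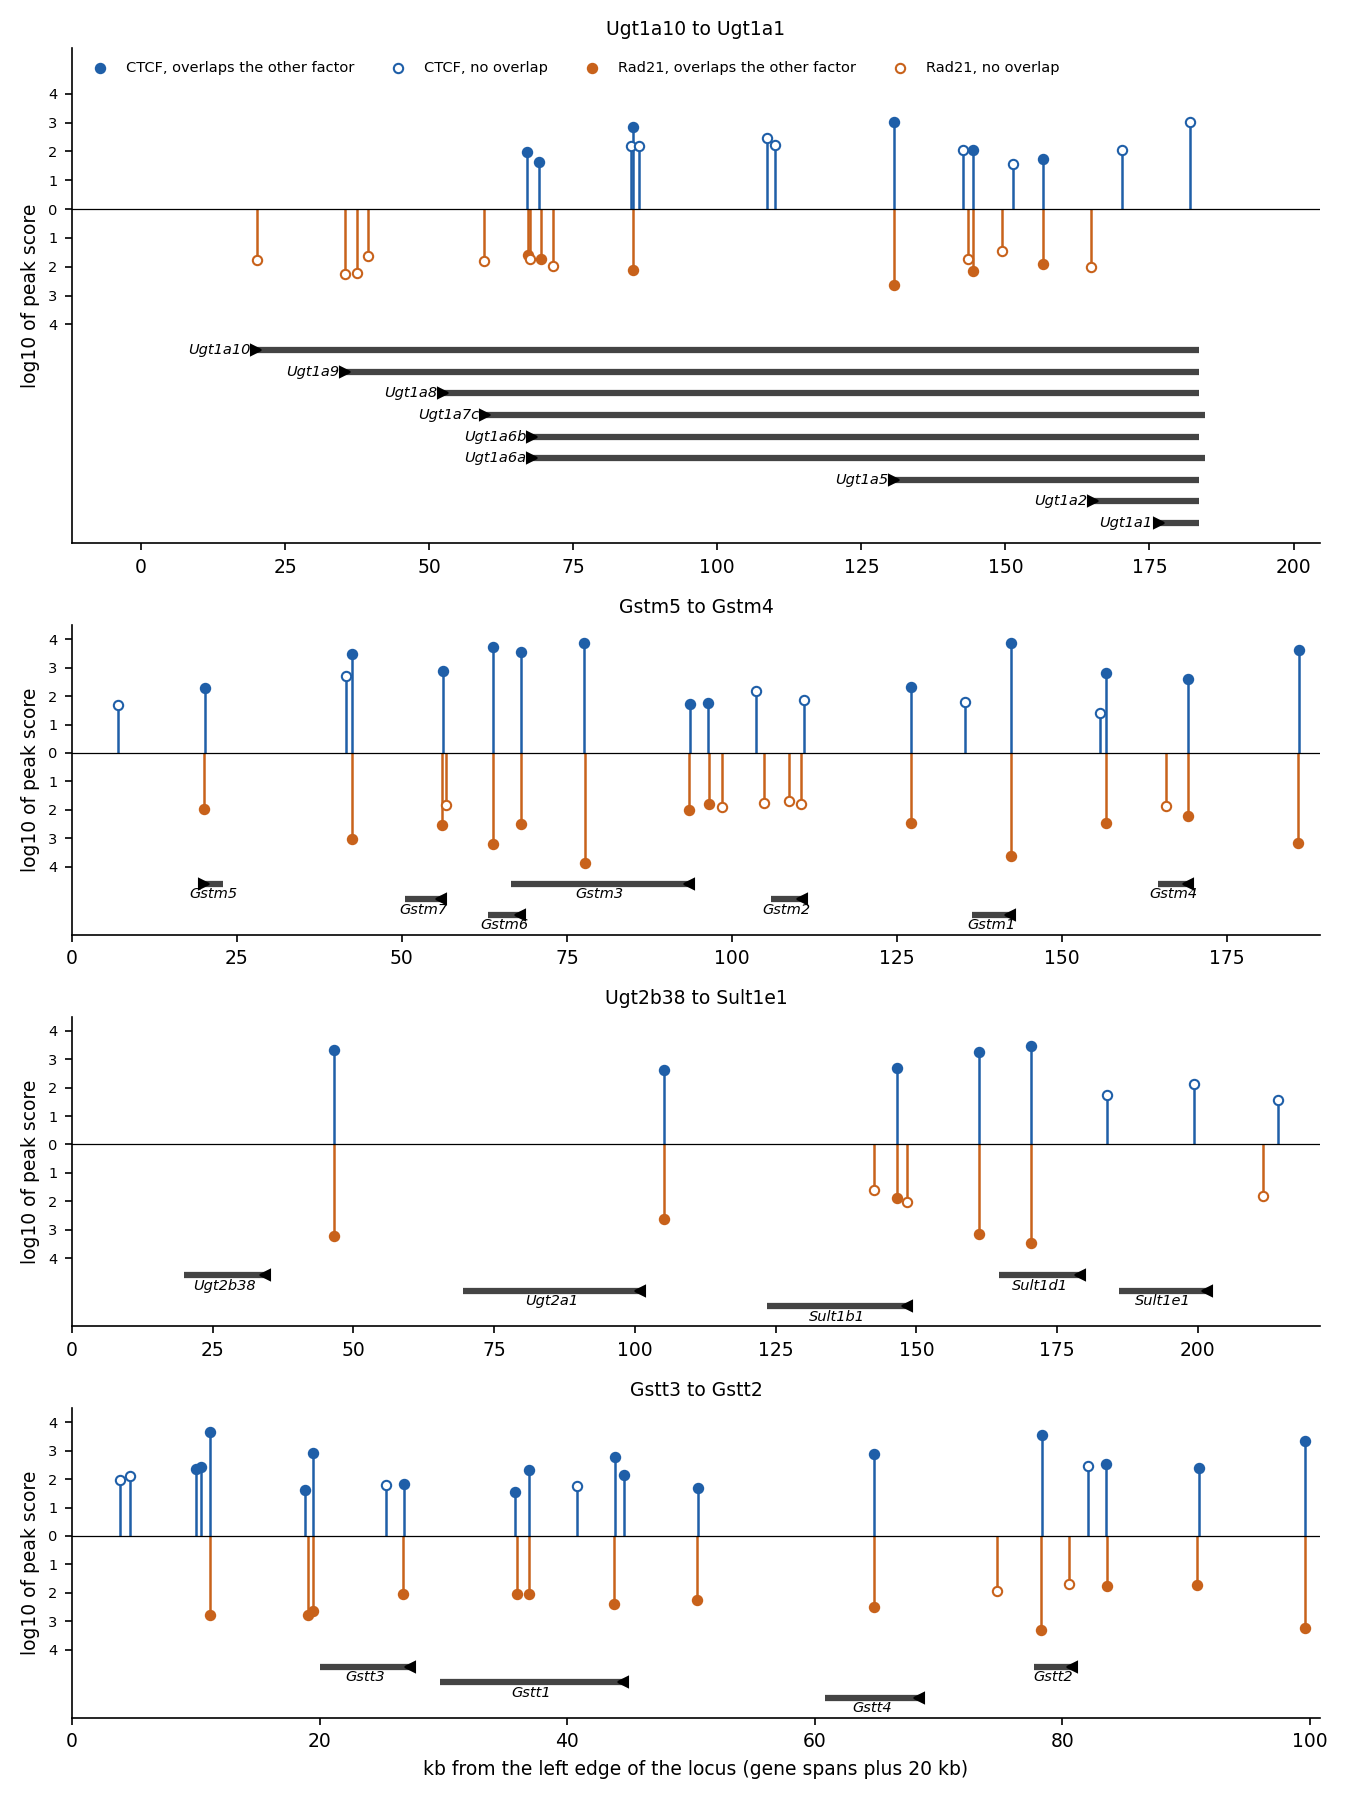
Peaks of the 4 loci with at least 3 member genes, with CTCF above and Rad21 below the line at the summit position (kb from the left edge of the locus) and log10 of the score as height. Filled points overlap the other factor and bars below are genes with an arrowhead at the start. The Ugt1a locus shows many open Rad21 points, and the Gstm locus shows tall filled pairs.

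Ugt2 genes lay with Sult1b1, Sult1d1 and Sult1e1 in a stretch of 702 kb on chromosome 5. The 12 genes there spanned 20 CTCF and 34 Rad21 peaks, with 18 Rad21 peaks without CTCF and the longest run without a CTCF peak reaching 168 kb. The 3 Ugt sites of highest Rad21 score were co-bound and lay upstream of Ugt2b38 (CTCF 2062, Rad21 1638), upstream of Ugt2b5 (1742 and 1600) and past Ugt2b35, where Rad21 (1579) scored higher than CTCF (741). The Ugt2b37 window held 0 CTCF peaks and 1 Rad21 peak, of score 116. Inside Ugt2a3 a CTCF score of 1523 stood beside a Rad21 score of 249. The nearest TAD anchors lay 39.5 kb to the left of the stretch and 963 kb to the right, and the Sult1d1 site was the anchor inside it, an intra-TAD anchor. Away from this stretch, the strongest peaks of the Ugt3a locus on chromosome 15 were a CTCF score of 364 without Rad21 and a Rad21 score of 165.

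The Sult2a genes, whose products sulfonate bile acids and steroids, lay in a stretch of 631 kb on chromosome 7 with 6 genes, 2 CTCF peaks and 1 Rad21 peak. The co-bound site lay in an intron of Sult2a6 (CTCF 394, Rad21 66), and a CTCF peak of 116 lay in an intron of Sult2a1 without Rad21. The longest run was 425 kb without CTCF and 601 kb without Rad21. TAD anchors flanked the stretch 560 kb to the left and 62.6 kb to the right, 1254 kb apart. Windows of other Sult genes held strong sites. The strongest scored 10819 for CTCF (1209 fragments) and 964 for Rad21. It lay 19.3 kb upstream of Sult1a1, inside Slx1b and Bola2 and 10 bp from the start of Slx1b. In the Sult4a1 window a TAD anchor nearer to the start of Efcab6 had a CTCF score of 4436. The strongest CTCF scores at Sult1c2, Sult2b1 and Sult5a1 were 2515, 2152 and 2080, all at anchors inside the gene. In the Sult6b1 window the strongest was 1053, 182 bp from the start of 1110001A16Rik.

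Duplicated sequence can lower the count of mapped reads, so the share of bases whose 50-base word occurs once in mm9 was computed for every locus and every gene span. Over the territories it was 81.2% in Ugt, 88.9% in Gst and 75% in Sult territory, beside 89.4% of a sample of the autosomes. The Sult1c1 span had 0.00% unique bases, so its lack of peaks says nothing about binding. The Gsta1 span had 11.8%, that of Sult2a2 36.4% and that of Sult2a1 57.7%. Among the other windows with no peak, unique bases made up 79.1% at Sult3a1, 74.5% at Sult2a5, 71.5% at Sult2a4, 77.1% at Sult2a3 and 97.9% at Gstm2-ps1. Counted over unique bases only, Sult territory held 5.12 CTCF peaks per 100 kb and Ugt territory 5.19, against 11.5 for Gst. No density over unique bases was computed for all genes, so these values cannot be set against the background. The part of repeats in the low counts was not tested beyond these values.

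**Figure D5:**
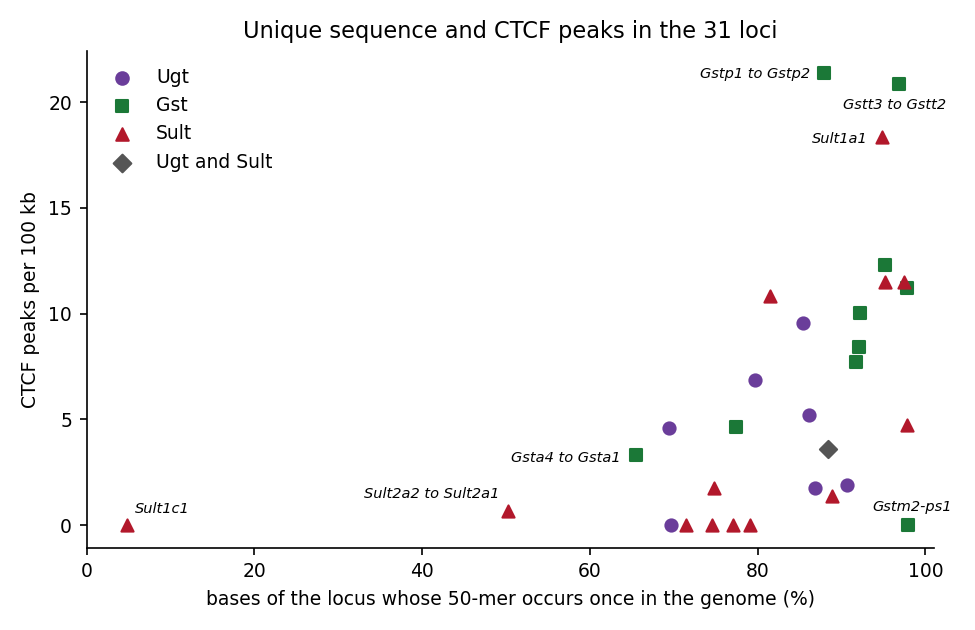
Share of unique bases (percent, horizontal axis) and CTCF peaks per 100 kb (vertical axis) for the 31 loci, marked by family. The Sult1c1 locus lies at 4.79% with 0 peaks, while Sult loci between 70 and 80% also reach 0.

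Orientation could be read at sites with a deposited motif. Of 75 co-bound member sites with a deposited motif, the Rad21 summit lay downstream of the CTCF summit, along the motif, in 50 (66.7%), with a median of 8 bp, beside 68.3% and 17 bp for 34664 autosomal sites.

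Genes that supply or regulate these reactions were listed as well, 46 in all, of which 45 lie on autosomes. Of these, 44 (97.8%) had a CTCF peak and 44 a Rad21 peak within 20 kb, where 84.1% and 81.4% of all genes did, and 30 (66.7%) had an anchor, beside 51.6%. A Rad21 peak lay within 1 kb of a start in 38 (84.4%), beside 54.6%. Rad21 peaks without CTCF lay in 32 windows (71.1%, beside 37.5% of all genes) and at 14 starts (31.1%, beside 10.1%). Ugdh, which makes UDP-glucuronate, had a CTCF score of 8196 and a Rad21 score of 3328 in its window, and Papss2, which makes PAPS, had 407 and 347. Gclc, the catalytic subunit of the enzyme that limits glutathione synthesis, had 3777 and 3888. All 10 regulators listed, such as Nr1i2 and Nr1i3 (the receptors PXR and CAR) and Nfe2l2, had both factors within 1 kb of a start, which 57.3% of all genes had for CTCF and 54.6% for Rad21. Slc13a1, a sulfate carrier, was the gene of the list with no peak of either factor.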

How the data were processed

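CTCF and Rad21 ChIP-seq were made from livers of individual mice. Per the paper's methods and the labels, the authors mapped single-end reads to mm9 with Bowtie2, kept uniquely mapped reads, called peaks with MACS2, removed blacklisted regions and peaks made of duplicate reads, and deposited 1 merged list per factor. The deposited lists hold a score, a fold enrichment (a ratio) and a −log10 p-value for each peak. The deposited class list holds a motif score and flags without a header, named here from their order in the study's description. The lists hold no library totals, so no value here was scaled by depth.

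Peaks were counted by overlap of at least 1 bp with gene spans extended by 20 kb, and length was counted once per territory. Wilson and exact Poisson intervals at 95% cover counting error only. The members and lists were chosen with earlier results of these data known. Named genes are the loci with at least 3 members, fixed subfamily representatives, the genes of the 3 strongest peaks per factor and family, genes with a peak at a start, and genes with no peak, and other genes named were chosen after their values were seen. Unique sequence was scored with 50-base words, the length of the reads, at every 1000th base for the autosomes. The motif was learnt from 2000 sites and matched 96.6% of held-out sites with a deposited motif. Counting scripts were tested on simulated data with known answers. Tables were handled with pandas 2.3.3 under Python 3.11.15, intervals with SciPy 1.17.1, words with NumPy 2.4.6 and Numba 0.67.0, and sequences with samtools 1.23.1 and pysam 0.24.0.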

Additional observations from a re-analysis of the deposited data

How the results depend on the processing

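Of 66 alternatives to the densities and shares, 57 stayed within the margins (1.5 times for a density, the Wilson interval for a share) and 9 moved. With peaks of score 100 or more, Rad21 density was 2.85 per 100 kb in Ugt and 2.05 in Sult territory (2.65 for all genes), and Rad21 at starts was 25% in Ugt and 50% in Gst (46.9% for all genes). With gene spans alone (flank of 0 kb), Gst Rad21 density was 14.8 per 100 kb (4.15 for all genes), and co-bound CTCF was 83.3% in Gst and 87.5% in Sult (66.9% for all genes). With summits at most 100 bp apart, Gst co-binding was 57.0% (54.9% for all genes). Without the Ugt1a locus, Ugt co-binding was 80.0%, so that locus moves the Ugt share.

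No paired analysis was possible because the lists are pooled over livers and hold no replicate columns. The lists give no depth, and the spread between livers cannot be estimated from them.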
